A study of Mus musculus with 16 samples.

Results

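A set of 8 linker and replacement histone genes was followed in epithelial cells of the mouse caecum: the linker histone gene H1f0, the H2A variant genes H2afz, H2afv, H2afx, H2afj and H2afy, and the H3.3 genes H3f3a and H3f3b. They were chosen by name, and each symbol was found once among the 24091 genes measured, so the set is 8 of 24091 genes. All 8 passed the filter on low values, at a mean of at least 1 TPM (a share of all transcripts, corrected for transcript length, that sums to nearly the same total in every library), that left 12155 genes for testing. RNA came from intestinal epithelial cells of the caecum of C57BL/6 mice, an inbred laboratory strain, and the 9 libraries formed 3 groups of 3. All mice were given a vehicle with 10 g/L Splenda, a sweetener, for 7 days. One group also had 1 g/L ampicillin, an antibiotic, and was gavaged on day 7 with tributyrin, a glycerol ester from which lipases release butyrate, 6 h before the tissue was taken. Another had the same ampicillin and a mock gavage of 25% glycerol, and its libraries are numbered below as ampicillin replicates. The third had the Splenda vehicle without ampicillin and the same mock gavage. Tributyrin over vehicle therefore compares groups that differ in both ampicillin and gavage, and that comparison cannot tell these apart. No glycerol percent is listed for the tributyrin gavage, so a difference in glycerol between the gavages cannot be told apart from tributyrin. The labels give no tributyrin dose, age or sex. They do not say whether each library is its own mouse, so every p here rests on library-to-library spread that may be technical. The study's other 7 samples, of chromatin, were not analysed here.

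DNA in the nucleus is wound around octamers of core histones, and linker histones such as H1 bind where it enters and leaves the octamer. Most histone genes are expressed in S phase from clustered genes whose mRNA ends in a stem-loop and not in a poly(A) tail. Replacement histones are made throughout the cell cycle, mostly from polyadenylated mRNA, and are exchanged into chromatin by dedicated chaperones and remodellers. H1f0 encodes a linker histone known for accumulating in cells that stop dividing and differentiate, and it is a textbook gene raised by butyrate, an inhibitor of histone deacetylases, in cultured cells. The caecum is a main site at which bacteria make butyrate, and its epithelium uses it as fuel.

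The promoters of H1f0, H2afv and H3f3b are shown because these are the members called higher after tributyrin in at least 1 comparison (H3f3b only over vehicle), and that of H2afz because it encodes nearly the same histone as H2afv. Each runs 5′ to 3′ from 250 bases before to 50 bases after a transcript start in the RefSeq promoter table (build GRCm38.p6, the assembly of mm10). For H2afv and H3f3b that start lies inside the gene span given below, whose outer end is further upstream. Capitals mark every CCAAT box and every GGGCGG box on either strand, so a CCAAT box on the other strand reads ATTGG.
H1f0, chr15:79027962-79028261, plus strand: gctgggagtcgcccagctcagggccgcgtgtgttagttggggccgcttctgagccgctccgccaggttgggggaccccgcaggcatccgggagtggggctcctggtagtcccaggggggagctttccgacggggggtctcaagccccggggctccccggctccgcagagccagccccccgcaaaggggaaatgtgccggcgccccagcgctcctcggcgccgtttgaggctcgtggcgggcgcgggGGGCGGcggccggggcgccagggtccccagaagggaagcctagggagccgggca
H2afv, chr11:6444394-6444693, minus strand: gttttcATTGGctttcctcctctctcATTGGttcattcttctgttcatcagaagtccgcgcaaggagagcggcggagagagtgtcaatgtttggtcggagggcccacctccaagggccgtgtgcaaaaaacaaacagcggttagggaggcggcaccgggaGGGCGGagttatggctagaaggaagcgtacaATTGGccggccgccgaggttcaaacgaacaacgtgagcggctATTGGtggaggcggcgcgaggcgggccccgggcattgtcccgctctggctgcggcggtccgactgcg
H2afz, chr3:137864237-137864536, plus strand: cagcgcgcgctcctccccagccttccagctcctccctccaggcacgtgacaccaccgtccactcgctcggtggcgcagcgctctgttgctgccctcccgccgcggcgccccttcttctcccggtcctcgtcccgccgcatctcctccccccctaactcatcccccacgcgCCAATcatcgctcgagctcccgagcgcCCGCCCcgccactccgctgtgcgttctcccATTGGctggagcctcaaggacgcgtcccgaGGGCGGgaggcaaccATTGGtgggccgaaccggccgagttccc
H3f3b, chr11:116024455-116024754, minus strand: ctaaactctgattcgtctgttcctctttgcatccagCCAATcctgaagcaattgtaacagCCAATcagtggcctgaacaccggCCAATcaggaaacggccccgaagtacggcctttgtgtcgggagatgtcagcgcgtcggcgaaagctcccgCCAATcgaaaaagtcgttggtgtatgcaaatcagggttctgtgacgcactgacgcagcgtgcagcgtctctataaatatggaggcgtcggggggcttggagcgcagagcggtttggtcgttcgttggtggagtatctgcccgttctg
The H1f0 window held 0 CCAAT and 1 GGGCGG match. The H2afv window held 4 CCAAT matches, that of H3f3b 4 and that of H2afz 3. Of 32851 RefSeq promoter windows of the same length, 37.4% held at least 1 CCAAT match, 3.37% at least 3 and 1.06% at least 4, and 35.7% held at least 1 GGGCGG match. G and C made up 75.0% of the H1f0 window, 60.7% for H2afv, 71.3% for H2afz and 55.0% for H3f3b, against a median of 52.7% over all windows. RefSeq windows were found for 7 of the 8 members, and among the others H2afj had 3 CCAAT matches, H3f3a 1 and H2afy 0. No promoter window of H2afx was used here. A match is a run of letters and not a measured binding site.

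Each library's TPM summed to between 999833 and 999866, and 17242 to 17722 genes were above 0. The depth of the libraries is unknown, since TPM keeps no record of it. Log2 values of the tested genes correlated across genes at 0.9755 to 0.9814 within groups and 0.9637 to 0.9749 between groups, and no library stood apart. The cells carried epithelial RNA: the 7 epithelial markers (such as Epcam and Krt8) summed to 10036 to 10903 TPM after tributyrin, 9420.25 to 10405 with ampicillin and mock gavage, and 10617 to 12535 with vehicle. Of these 7 genes, 2 rose and 0 fell with tributyrin over ampicillin with mock gavage, 2 rose and 3 fell with tributyrin over vehicle, and 0 rose and 5 fell with ampicillin and mock gavage over vehicle. As shares of the 7 these calls were 28.6%, 71.4% and 71.4%, against 23.2%, 28.3% and 21.3% of all genes tested. The part of these changes in the histone values was not tested. Fibroblast markers summed to at most 0.417 TPM in a library and smooth muscle markers to at most 0.149 TPM. B and plasma cell markers summed to 0.455 to 2.08 TPM and myeloid markers to 3.01 to 5.83 TPM, with S100a8 at 0 in every library.

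The 8 members were abundant messages, with means over the 9 libraries of 724 TPM for H3f3a, 524 for H3f3b, 417 for H2afz, 242 for H1f0, 171 for H2afj, 143 for H2afy, 73.1 for H2afx and 55.8 for H2afv. By mean level H3f3a ranked 224th and H2afv 2566th of the 12155 genes tested. This order held in most libraries. H3f3b exceeded H2afz in 9 of 9 libraries although their ranges touched, at a lowest value of 465 TPM for H3f3b and a highest of 467 for H2afz. H1f0 exceeded H2afj in 8 of 9, with ampicillin replicate 3 at 172.67 TPM for H1f0 and 172.70 for H2afj. H2afj exceeded H2afy in 8 of 9 libraries, the exception being vehicle replicate 2. The highest library was 2.08 times the lowest for H1f0, and between 1.18 times (H2afy) and 1.44 times (H2afv) for the other 7 members.

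**Figure D1:**
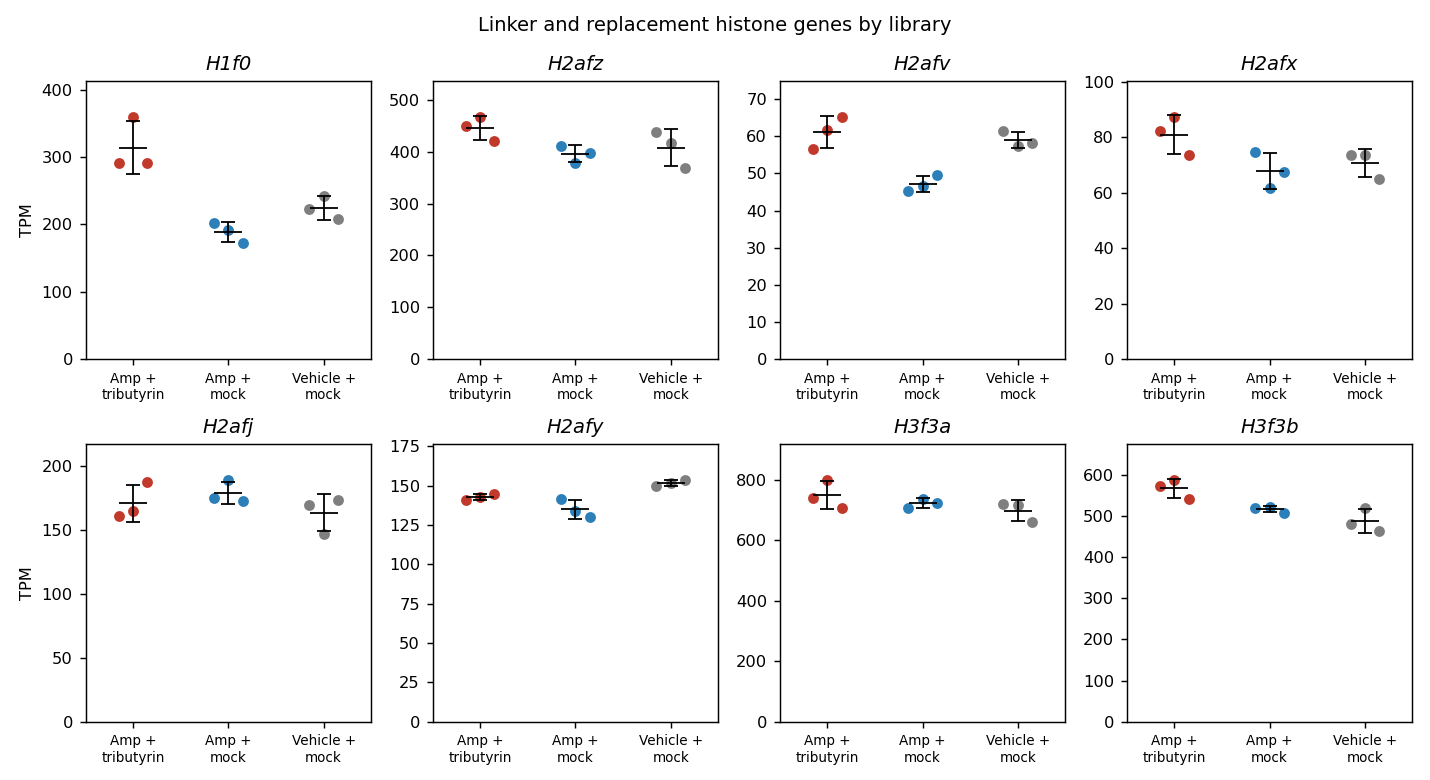
TPM of the 8 histone genes in each library, with axes starting at 0. Points are libraries, replicates 1 to 3 from left to right within a group, and black bars are the mean and SD of 3 libraries; H1f0 stands at 291 to 359 TPM after tributyrin, above every library with ampicillin and mock gavage (173 to 202) and with vehicle (208 to 243).

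H1f0, the linker histone gene (gene ID 14958, chromosome 15, 79028212 to 79030504), was higher after tributyrin than in both other groups. It stood at 291, 359 and 292 TPM in the 3 tributyrin libraries, at 202, 191 and 173 TPM in those with ampicillin and mock gavage, and at 223, 243 and 208 TPM in those with vehicle. No tributyrin library overlapped either other group, and each library with ampicillin and mock gavage was below each vehicle library. The mean was 314 ± 39.1 TPM after tributyrin, 189 ± 14.9 with ampicillin and mock gavage, and 224 ± 17.6 with vehicle (SD, n = 3 each). On the scale of log2(TPM + 1), used for every fold change here, H1f0 rose by 0.73 ± 0.099 (SE) over ampicillin with mock gavage, with a 95% interval of 0.50 to 0.95 and an adjusted p of 0.00189 in limma with Benjamini-Hochberg adjustment over all genes tested. That is a ratio of means of 1.66. Against vehicle it rose by 0.48 ± 0.099 (interval 0.25 to 0.71, limma adjusted p = 0.00945), a ratio of 1.40. The log2 fold change of ampicillin with mock gavage over vehicle was -0.25 ± 0.099 (interval -0.48 to -0.02, limma adjusted p = 0.115), which did not pass the threshold of 0.05. The 3 comparisons share libraries in pairs, so they are not independent of one another. Among all 12155 genes, H1f0 was 401st from the highest log2 fold change for tributyrin over ampicillin with mock gavage and 384th by p.

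H2A.Z is the H2A variant found in the nucleosomes that flank active promoters, and it comes from a pair of genes whose proteins are nearly identical. H2afv (gene ID 77605, chromosome 11, 6427226 to 6444511), the less abundant of the pair, stood at 56.7, 61.8 and 65.1 TPM after tributyrin, at 45.15, 46.6 and 49.5 TPM with ampicillin and mock gavage, and at 61.6, 57.3 and 58.2 TPM with vehicle. The ampicillin libraries with mock gavage lay below all 6 others, while the tributyrin and vehicle libraries overlapped. H2afv rose with tributyrin over ampicillin with mock gavage by 0.37 ± 0.062 (limma adjusted p = 0.00459). It fell with ampicillin and mock gavage relative to vehicle, at a log2 fold change of -0.32 ± 0.062 (limma adjusted p = 0.00761). Tributyrin over vehicle gave 0.05 ± 0.062, with an interval of -0.09 to 0.19 (limma adjusted p = 0.576). Its partner H2afz (gene ID 51788, chromosome 3, 137864487 to 137866922) stood at 450.1, 467 and 421 TPM after tributyrin, at 411, 379 and 398 TPM with ampicillin and mock gavage, and at 438, 416 and 368 TPM with vehicle. The tributyrin libraries lay above those with ampicillin and mock gavage, but neither that comparison (0.17, interval 0.01 to 0.33, limma adjusted p = 0.122) nor the other 2 passed the threshold. H2afv made up 12.1 ± 1.16% of the summed TPM of the pair after tributyrin, 10.6 ± 0.641% with ampicillin and mock gavage, and 12.7 ± 0.836% with vehicle (SD, n = 3 each). That share did not overlap between tributyrin and ampicillin with mock gavage, or between ampicillin with mock gavage and vehicle, at an exact two-sided permutation p of 0.1 for each, the smallest that 3 libraries against 3 allow. Taken as a sum, the pair no longer passed: 0.19 for tributyrin over ampicillin with mock gavage (limma adjusted p = 0.0633) and -0.07 for ampicillin with mock gavage over vehicle (limma adjusted p = 0.496).

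H2afx (gene ID 15270, chromosome 9, 44334715 to 44336077) encodes the variant whose phosphorylated form marks DNA double-strand breaks. It stood at 82.1, 87.1 and 73.4 TPM after tributyrin, at 74.5, 61.5 and 67.3 TPM with ampicillin and mock gavage, and at 73.4, 73.7 and 64.9 TPM with vehicle. All 3 groups overlapped, and no comparison passed. The highest log2 fold change, for tributyrin over ampicillin with mock gavage, was 0.25 ± 0.090 (interval 0.05 to 0.46, limma adjusted p = 0.0756). Without tributyrin replicate 3, the lowest of its group, it was 0.32 and passed (limma adjusted p = 0.0422). H2afj (gene ID 232440, chromosome 6, 136808248 to 136810074), a mammalian H2A variant known to build up in senescent human fibroblasts, stood at 161, 165 and 187 TPM after tributyrin, at 175.0, 189 and 173 TPM with ampicillin and mock gavage, and at 169.7, 147 and 173 TPM with vehicle. It was the 1 member with a negative log2 fold change for tributyrin over ampicillin with mock gavage, at -0.07 with an interval of -0.26 to 0.12 (limma adjusted p = 0.584). Its groups overlapped in all 3 comparisons and none passed.

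H2afy (gene ID 26914, chromosome 13, 56073622 to 56135626) encodes macroH2A1, an H2A that carries a large globular macrodomain and is known from silent chromatin. It stood at 141, 143 and 145 TPM after tributyrin, at 142, 134 and 129.9 TPM with ampicillin and mock gavage, and at 150.1, 152 and 154 TPM with vehicle. The vehicle libraries were the highest and lay above all 6 ampicillin-treated libraries. H2afy fell with ampicillin and mock gavage relative to vehicle, at a log2 fold change of -0.17 ± 0.043 and a ratio of means of 0.890 (limma adjusted p = 0.0250). Leaving out a library ended that call for vehicle replicate 2 (limma adjusted p = 0.0546), vehicle replicate 3 (0.0798), ampicillin replicate 2 (0.0849) and ampicillin replicate 3 (0.0880). Tributyrin over vehicle gave -0.09 (interval -0.19 to 0.01, limma adjusted p = 0.154) and tributyrin over ampicillin with mock gavage 0.08 (limma adjusted p = 0.219). The values are per gene, so the splice forms of macroH2A1 could not be compared.

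H3.3 is the replacement form of histone H3, laid down at active genes by HIRA and at repeats by DAXX and ATRX, and both of its genes encode the same protein. H3f3b (gene ID 15081, chromosome 11, 116021961 to 116026039) stood at 574, 588 and 542 TPM after tributyrin, at 520.0, 522 and 508 TPM with ampicillin and mock gavage, and at 480.0, 519.6 and 465 TPM with vehicle. Each tributyrin library was above all 6 others. H3f3b rose with tributyrin relative to vehicle, which also lacked ampicillin, by 0.22 ± 0.054, a ratio of means of 1.16 (limma adjusted p = 0.0181). That call was lost without vehicle replicate 1 (limma adjusted p = 0.0536), vehicle replicate 3 (0.0616), tributyrin replicate 1 (0.0562) or tributyrin replicate 2 (0.0652), and when only the 6 libraries compared were fitted (0.0531). Over ampicillin with mock gavage the tributyrin libraries gave 0.14 (interval 0.01 to 0.26, limma adjusted p = 0.101). H3f3a (gene ID 15078, chromosome 1, 180802560 to 180813605), the most abundant member, stood at 739, 799.7 and 709 TPM after tributyrin, at 707, 738 and 725 TPM with ampicillin and mock gavage, and at 720.1, 716 and 660.0 TPM with vehicle. Its groups overlapped in all 3 comparisons and no comparison passed. The largest log2 fold change, for tributyrin over vehicle, was 0.10 with an interval of -0.03 to 0.23. RefSeq lists pseudogene copies of H3f3a that can share its reads, so its level is uncertain. Summed, H3f3a and H3f3b stood at 1317 ± 68.3 TPM after tributyrin, 1239.9 ± 17.7 with ampicillin and mock gavage, and 1187 ± 56.8 with vehicle (SD, n = 3 each). The sum gave 0.15 for tributyrin over vehicle, which did not pass (limma adjusted p = 0.0714).

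**Figure D2:**
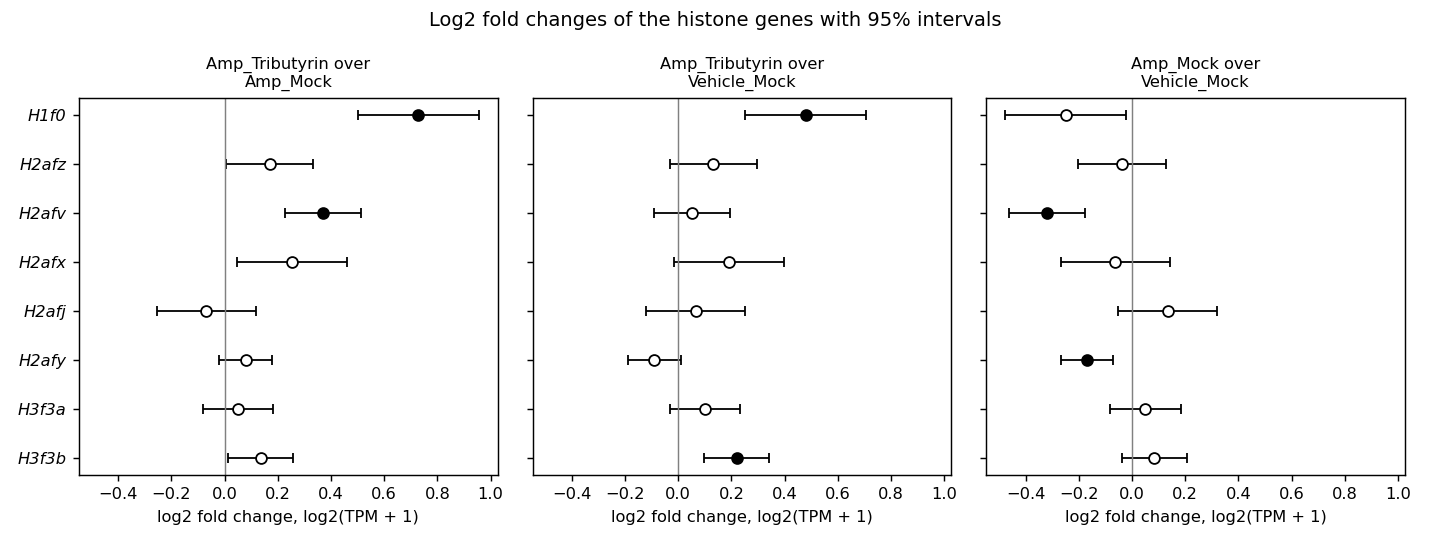
Log2 fold changes of the 8 genes on the scale of log2(TPM + 1), with 95% intervals from limma; filled points passed an adjusted p of 0.05 over all genes tested and open points did not. H1f0 is filled in both tributyrin comparisons (0.73 and 0.48), H2afv in both comparisons with ampicillin and mock gavage (0.37 and -0.32), H3f3b at 0.22 and H2afy at -0.17.

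Counted together, 2 of 8 members rose with tributyrin over ampicillin with mock gavage (H1f0 and H2afv) and 0 fell, where 23.2% of all genes tested were called (15.6% higher and 7.54% lower). Against vehicle, 2 rose after tributyrin (H1f0 and H3f3b) and 0 fell, where 28.3% of all genes were called (19.1% higher and 9.21% lower). With ampicillin and mock gavage relative to vehicle, 2 fell (H2afv and H2afy) and 0 rose, where 21.3% were called (10.2% lower). With quantile normalization, genes called for tributyrin over ampicillin with mock gavage were 1466 higher and 1647 lower, against 1902 higher and 917 lower as deposited, and for tributyrin over vehicle 1683 higher and 1663 lower, against 2325 higher and 1119 lower as deposited. Members called stayed at 2 in each. The members called make up 25.0% of the set, close to the background in each comparison. Libraries did not overlap for 4 of 8 members between tributyrin and ampicillin with mock gavage (H1f0, H2afz, H2afv and H3f3b), where they did not overlap for 42.6% of all genes. They did not overlap for 3 of 8 between tributyrin and vehicle, against 41.7% of all genes, and for 3 of 8 between ampicillin with mock gavage and vehicle, against 40.8%. The median log2 fold change of the members was 0.15, 0.12 and -0.05 in these 3 comparisons, and that of all genes tested was 0.05, 0.08 and 0.02. The 8 members summed to 2533 ± 122 TPM after tributyrin, 2254 ± 28.0 with ampicillin and mock gavage, and 2264 ± 98.0 with vehicle (SD, n = 3 each). Tributyrin libraries lay above both other groups in this sum, at an exact two-sided permutation p of 0.1, the smallest possible, in each case.

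Of the other linker histone genes whose fits are given here, Hist1h1c and H1fx rose after tributyrin in both of its comparisons, and Hist1h1d over ampicillin with mock gavage. Hist1h1c, which encodes histone H1.2 and is known to make polyadenylated as well as stem-loop mRNA, stood at 265, 254 and 243 TPM after tributyrin, at 193, 198 and 214 TPM with ampicillin and mock gavage, and at 129.6, 142 and 135 TPM with vehicle. The 3 groups did not overlap, with tributyrin highest and vehicle lowest. It rose by 0.33 ± 0.058 with tributyrin over ampicillin with mock gavage (limma adjusted p = 0.00547), by 0.90 ± 0.058 with tributyrin over vehicle (limma adjusted p = 6.90e-05) and by 0.57 ± 0.058 with ampicillin and mock gavage over vehicle (limma adjusted p = 0.000335). H1fx, a linker histone gene outside the clusters, stood at 7.78, 11.9 and 9.20 TPM after tributyrin, at 2.64, 3.39 and 2.52 TPM with ampicillin and mock gavage, and at 3.55, 3.47 and 2.46 TPM with vehicle. Its tributyrin libraries were all above the other 6. It rose by 1.45 ± 0.16 over ampicillin with mock gavage and by 1.34 ± 0.16 over vehicle (limma adjusted p = 0.000983 for each), or by 0.89 and 0.83 with a pseudocount of 5 in place of 1. Hist1h1d, a cluster gene for histone H1.3, stood at 3.72, 2.99 and 2.40 TPM after tributyrin, at 1.62, 1.46 and 1.33 TPM with ampicillin and mock gavage, and at 1.153, 2.69 and 1.61 TPM with vehicle. It rose by 0.70 ± 0.20 over ampicillin with mock gavage (limma adjusted p = 0.0358), a call lost under 8 of 17 alternatives, among them quantile normalization and leaving out any 1 of the ampicillin libraries, tributyrin replicate 1 or 2, or vehicle replicate 3. Hist1h1e was also tested, and its fit is not reported here. It stood at 3.02, 2.65 and 2.17 TPM after tributyrin, at 1.41, 1.74 and 1.62 TPM with ampicillin and mock gavage, and at 2.60, 2.01 and 1.99 TPM with vehicle. Its tributyrin libraries lay above those with ampicillin and mock gavage and overlapped those with vehicle. Hist1h1a and Hist1h1b did not pass the filter. Cluster genes are close copies that share reads, and the labels do not state how mRNA was selected. Sums and shares with them are therefore comparisons of deposited TPM between groups and not of the true makeup of H1. Over 7 H1 genes (H1f0, H1fx and Hist1h1a to Hist1h1e), the summed level was 585 ± 42.4 TPM after tributyrin, 397 ± 4.18 with ampicillin and mock gavage, and 368 ± 23.0 with vehicle (SD, n = 3 each). H1f0 made up 53.6 ± 3.03% of it after tributyrin, 47.5 ± 3.29% with ampicillin and mock gavage, and 60.9 ± 1.41% with vehicle (SD, n = 3 each). None of these shares overlapped between groups, at an exact two-sided permutation p of 0.1 in each comparison. H1f0 and Hist1h1c together made up 97.1 ± 0.109% after tributyrin, 98.3 ± 0.136% with ampicillin and mock gavage, and 97.8 ± 0.146% with vehicle.

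**Figure D3:**
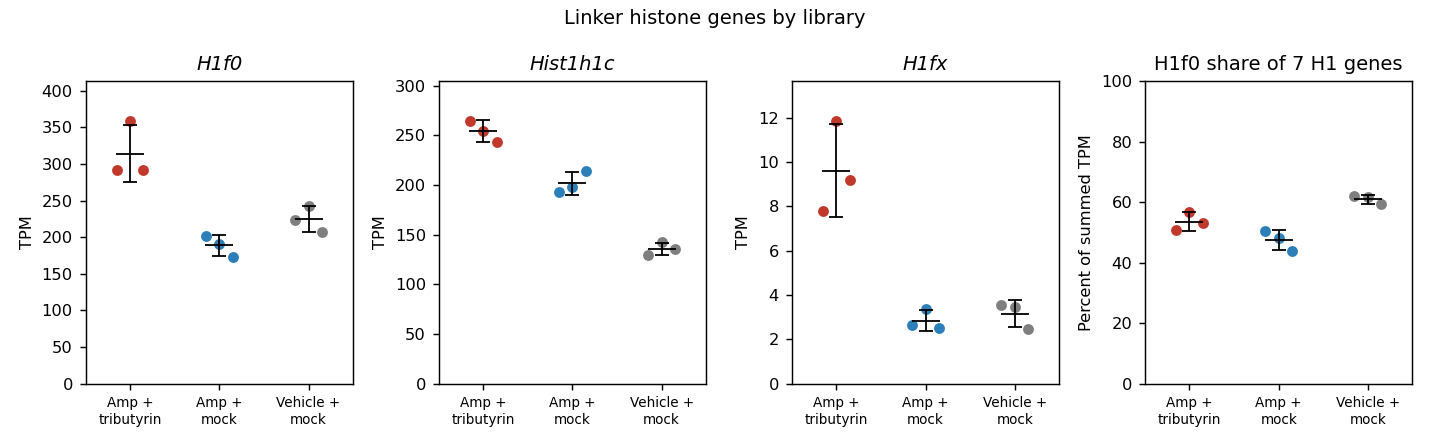
TPM of H1f0, Hist1h1c and H1fx by library, and the share of H1f0 in the summed TPM of 7 H1 genes in percent; points are libraries and bars the mean and SD of 3. The share of H1f0 is 53.6% after tributyrin, 47.5% with ampicillin and mock gavage and 60.9% with vehicle, while Hist1h1c is lowest with vehicle.

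Of 59 replication-dependent histone genes in the table, 34 passed the filter. With tributyrin over ampicillin with mock gavage, 7 rose and 1 fell, with a median log2 fold change of 0.43. In that comparison 23.5% of the 34 were called, against 23.2% of all genes tested. For tributyrin over vehicle these shares were 11.8% and 28.3%, and for ampicillin with mock gavage over vehicle 14.7% and 21.3%. The count of 7 was 2 with quantile normalization, 3 at a filter of 5 TPM, 2 without ampicillin replicate 1 or tributyrin replicate 2, 3 without tributyrin replicate 1 and 4 without ampicillin replicate 3. Among the genes called, Hist1h4b, Hist1h2bj and Hist1h1d had means of 1.14, 2.85 and 2.11 TPM, so the 5 TPM filter left them untested. Against vehicle 1 rose and 3 fell after tributyrin (1 to 5 and 1 to 3 over the alternatives), and 2 rose and 3 fell with ampicillin and mock gavage (1 to 3 and 1 to 4). These counts against vehicle moved by over 1.5 times when single libraries were left out. They became 3 higher without vehicle replicate 2 or tributyrin replicate 3, 2 higher without ampicillin replicate 2 or 3, and 1 lower without vehicle replicate 2, ampicillin replicate 2 or tributyrin replicate 3, for tributyrin. For ampicillin with mock gavage they became 1 higher and 1 lower without vehicle replicate 1 or 3 or ampicillin replicate 1 or 2. Hist2h2be, an H2B gene, stood at 7.01, 8.02 and 7.27 TPM after tributyrin, at 3.72, 4.53 and 4.002 TPM with ampicillin and mock gavage, and at 7.31, 8.41 and 8.03 TPM with vehicle. Like H2afv, it was lowest with ampicillin and mock gavage, with log2 fold changes of 0.73 ± 0.082 for tributyrin over that group (limma adjusted p = 0.000975) and -0.81 ± 0.082 for that group over vehicle (limma adjusted p = 0.000315). The more abundant Hist1h2ag did not have this pattern. It stood at 32.5 ± 10.6 TPM after tributyrin, 38.6 ± 5.32 with ampicillin and mock gavage and 68.4 ± 6.38 with vehicle (SD, n = 3 each). Tributyrin over vehicle gave -1.10 ± 0.23 (limma adjusted p = 0.00935). Tributyrin over ampicillin with mock gavage gave -0.28 (limma adjusted p = 0.400).

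Genes that handle these histones were also read. Of 10 H3.3 chaperones and their regulators, 1 rose and 0 fell with tributyrin over ampicillin with mock gavage (median log2 fold change 0.03). That gene was Nasp, a chaperone of free H3 and H4, at 68.1 ± 0.935 TPM after tributyrin and 55.1 ± 2.54 with ampicillin and mock gavage (SD, n = 3 each; log2 fold change 0.30 ± 0.053, limma adjusted p = 0.00531). Against vehicle 5 of the 10 rose after tributyrin and 1 fell (median 0.23), and the count that rose lay between 1, with quantile normalization or without vehicle replicate 3, and 6 over the alternatives, while the 1 that fell lost its call under 12 of them. With ampicillin and mock gavage relative to vehicle, 1 rose (Cabin1, a subunit of the HIRA complex, 0.36 ± 0.090, limma adjusted p = 0.0225) and 0 fell. That count was 2 with quantile normalization or without tributyrin replicate 3, 3 with array weights, and 0 without vehicle replicate 2 or 3 or any 1 of the ampicillin libraries.

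Of 20 genes of the complexes that insert or remove H2A.Z, 1 rose and 1 fell with tributyrin over ampicillin with mock gavage. Actr6, an actin-related subunit of the SRCAP remodeller, rose by 0.42 ± 0.088 (limma adjusted p = 0.0112), at 5.17 ± 0.609 TPM after tributyrin and 3.60 ± 0.290 with ampicillin and mock gavage (SD, n = 3 each). Znhit1, another SRCAP subunit, fell, at 84.7 ± 3.66 TPM after tributyrin and 95.2 ± 1.01 with ampicillin and mock gavage (SD, n = 3 each; log2 fold change -0.17 ± 0.045, limma adjusted p = 0.0295). Over the alternatives 0 to 3 rose and 0 to 5 fell. The count that fell was 3 with quantile normalization, 5 without tributyrin replicate 1, and 0 without tributyrin replicate 2 or any 1 of the ampicillin libraries, and 3 rose without tributyrin replicate 3. Against vehicle 3 rose and 0 fell after tributyrin, or 2 and 2 with quantile normalization, and 1 rose without tributyrin replicate 2 and 6 without tributyrin replicate 3. With ampicillin and mock gavage relative to vehicle, 0 rose and 2 fell, or 1 fell with quantile normalization or without vehicle replicate 1 or 3, any 1 of the ampicillin libraries, or tributyrin replicate 1 or 2. Anp32e, the chaperone that takes H2A.Z out of chromatin, was one of these, at 45.6 ± 1.76 TPM with ampicillin and mock gavage and 53.4 ± 1.36 TPM with vehicle (SD, n = 3 each; log2 fold change -0.22 ± 0.044, limma adjusted p = 0.00818).

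Of 18 general histone chaperones and nucleosome-binding proteins, 6 rose and 0 fell with tributyrin over ampicillin with mock gavage, or 4 and 0 with quantile normalization. In that comparison 33.3% of the 18 were called, against 23.2% of all genes tested. For tributyrin over vehicle these shares were 33.3% and 28.3%, and for ampicillin with mock gavage over vehicle 11.1% and 21.3%. The count of 6 was 3 without ampicillin replicate 1 or 2 or tributyrin replicate 1 or 2. Nap1l1, a chaperone of H2A and H2B, stood at 121 ± 4.97 TPM after tributyrin, 86.7 ± 2.12 with ampicillin and mock gavage and 108 ± 1.65 with vehicle (SD, n = 3 each). Its log2 fold change was 0.48 ± 0.044 for tributyrin over ampicillin with mock gavage (limma adjusted p = 0.000509) and -0.31 ± 0.044 for ampicillin with mock gavage over vehicle (limma adjusted p = 0.00168). Rbbp4, a histone-binding subunit shared by CAF-1 and deacetylase complexes, rose with tributyrin by 0.32 ± 0.044 over ampicillin with mock gavage (limma adjusted p = 0.00203). Against vehicle 5 rose and 1 fell after tributyrin, and the count that rose lay between 2 and 8 over the alternatives. With ampicillin and mock gavage relative to vehicle, 0 rose and 2 fell.

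Of 10 genes that control replication-dependent histone mRNA, 3 rose and 0 fell with tributyrin over ampicillin with mock gavage, with 2 to 6 rising over the alternatives (6 with array weights). Slbp, which binds the stem-loop of those mRNAs, stood at 72.6 ± 1.76 TPM after tributyrin, 54.1 ± 3.77 with ampicillin and mock gavage and 55.5 ± 2.35 with vehicle (SD, n = 3 each). It rose by 0.42 ± 0.058 over ampicillin with mock gavage (limma adjusted p = 0.00208) and by 0.38 ± 0.058 over vehicle (limma adjusted p = 0.00251). Against vehicle 5 of the 10 rose after tributyrin and 0 fell, with between 3 and 6 rising over the alternatives, and with ampicillin and mock gavage relative to vehicle 0 rose and 0 fell. Of 14 genes that act with H2AX in the damage response, 4 rose and 0 fell with tributyrin over ampicillin with mock gavage, among them the checkpoint kinase gene Chek1 (0.54 ± 0.093, limma adjusted p = 0.00491). That count of 4 was 8 with array weights, 1 without ampicillin replicate 1 or 2 or tributyrin replicate 2, and 2 without ampicillin replicate 3 or tributyrin replicate 1. Against vehicle 5 rose and 0 fell after tributyrin, or 3 and 0 with quantile normalization. Of the 14, 28.6% were called with tributyrin over ampicillin with mock gavage, against 23.2% of all genes tested. For tributyrin over vehicle these shares were 35.7% and 28.3%. None of the 14 was called with ampicillin and mock gavage relative to vehicle.

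**Figure D4:**
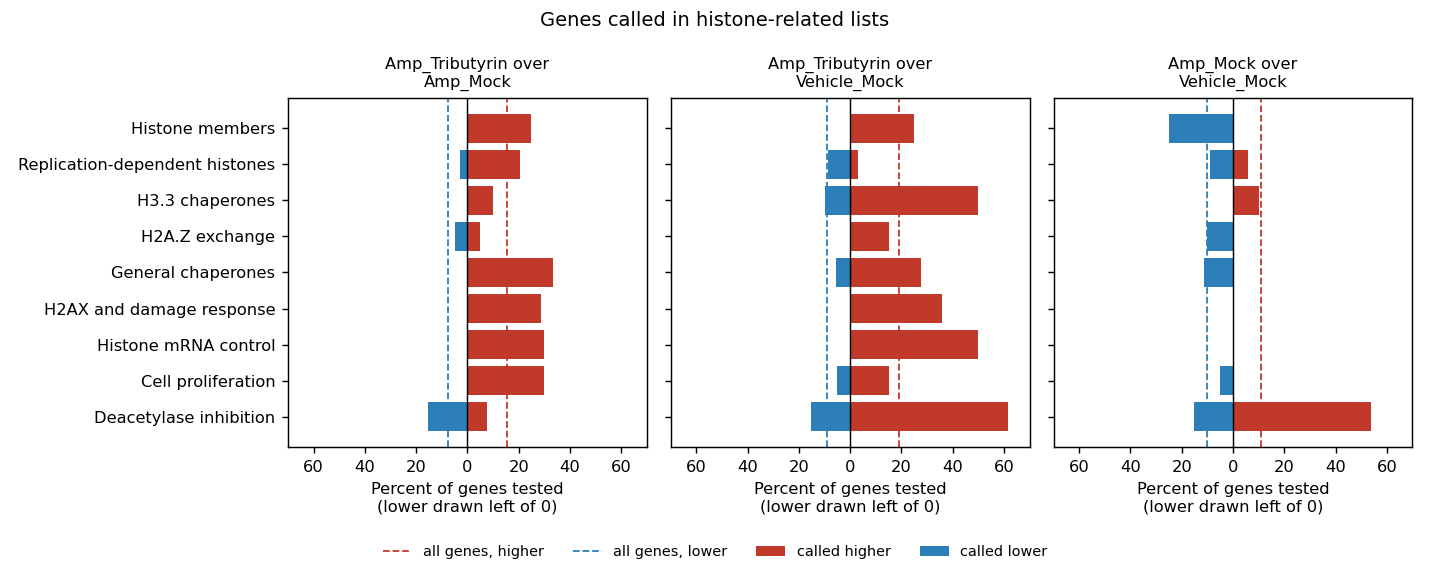
Percent of the tested genes of each list called higher (red, right of 0) or lower (blue, left of 0) in the 3 comparisons, by limma at an adjusted p under 0.05. Dashed lines mark the same percent over all 12155 genes tested, such as 15.6% higher and 7.54% lower for tributyrin over ampicillin with mock gavage, where 6 of 18 general chaperones and 2 of 8 members were higher.

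A list of other genes commonly raised by deacetylase inhibition in cultured cells was read beside H1f0, and 13 of its 16 genes were tested. With tributyrin over ampicillin with mock gavage, 1 rose and 2 fell (median log2 fold change -0.02, against 0.05 for all genes tested). Klf2, a transcription factor gene, rose by 0.64 ± 0.076 (limma adjusted p = 0.00119). It was also higher with ampicillin and mock gavage than with vehicle, by 0.74 ± 0.076 (limma adjusted p = 0.000335). The cell cycle inhibitor gene Cdkn2b fell, at 32.8 ± 5.16 TPM after tributyrin and 65.1 ± 2.95 TPM with ampicillin and mock gavage (SD, n = 3 each; limma adjusted p = 0.000857), and the actin-severing gelsolin gene Gsn changed by -0.58 ± 0.098 (limma adjusted p = 0.00467). With vehicle Cdkn2b stood at 30.7 ± 2.84 TPM and Gsn at 19.7 ± 2.77 (SD, n = 3 each). For ampicillin with mock gavage over vehicle Cdkn2b gave 1.06 (limma adjusted p = 0.000309). Gsn gave 1.59 (limma adjusted p = 2.67e-05). With ampicillin and mock gavage relative to vehicle, 7 of the 13 rose and 2 fell, and with tributyrin relative to vehicle 8 rose and 2 fell. Called were 69.2% of the 13 with ampicillin and mock gavage over vehicle, against 21.3% of all genes tested. For tributyrin over vehicle these shares were 76.9% and 28.3%, and for tributyrin over ampicillin with mock gavage 23.1% and 23.2%.

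Of 20 proliferation genes, 6 rose and 0 fell with tributyrin over ampicillin with mock gavage, 3 rose and 1 fell with tributyrin over vehicle, and 0 rose and 1 fell with ampicillin and mock gavage over vehicle. The first of these counts was 14 with array weights and 11 without tributyrin replicate 3, and the second was 0 without vehicle replicate 3 or tributyrin replicate 2, 1 without vehicle replicate 1 or 2 or tributyrin replicate 1, and 9 without tributyrin replicate 3. The third was 1 to 4 over the alternatives, with 3 after removal of short RNA entries and rescaling and 2 without vehicle replicate 3, ampicillin replicate 1 or 3, or tributyrin replicate 3. Their summed level overlapped between all groups, at 1501 to 1742 TPM after tributyrin, 1369 to 1545 with ampicillin and mock gavage, and 1466 to 1620.0 with vehicle. Of 7 T and intraepithelial lymphocyte markers, 6 were in the table and all 6 were tested, with 3 higher and 0 lower with tributyrin in each of its comparisons. Over ampicillin with mock gavage that count was 6 without tributyrin replicate 3, 1 without ampicillin replicate 1 or 2 or tributyrin replicate 1 or 2, and 0 at a filter of 5 TPM, and over vehicle it was 5 without tributyrin replicate 3 and 0 at a filter of 5 TPM. The called genes, Gzma, Cd8a and Cd3d, had lower means and were not tested at that filter, so its 0 shows no lost call. The 6 markers summed to 21.8 to 38.9 TPM after tributyrin, 10.97 to 18.6 with ampicillin and mock gavage, and 14.4 to 16.9 with vehicle, and none of the 6 was at 0 throughout. Of 3 erythroid markers, 2 were in the table, summing to 37.6 to 51.4 TPM after tributyrin, 5.74 to 13.8 with ampicillin and mock gavage, and 2.88 to 8.94 with vehicle. Nearly all of this sum was 1 gene, Hbb-bs, the only one tested. Its means were 42.6, 8.62 and 5.61 TPM in the same groups. Among 3 endothelial markers the 1 tested, Pecam1, stood at 1.38 ± 0.276 TPM after tributyrin, 0.586 ± 0.066 with ampicillin and mock gavage and 3.79 ± 0.253 with vehicle (SD, n = 3 each), and all 3 comparisons were called. The 3 markers summed to 1.11 to 1.67, 0.541 to 0.673 and 3.53 to 4.04 TPM in the same groups, nearly all of it Pecam1. This 1 gene cannot show a change of endothelial cells. Of 5 absorptive colonocyte markers, 1 rose and 1 fell with tributyrin in each of its comparisons, and 0 rose and 1 fell with ampicillin and mock gavage over vehicle. Their summed level was 33001 to 34156 TPM after tributyrin, 34623 to 36865 with ampicillin and mock gavage, and 35139 to 37309 with vehicle. Guca2a was the gene that fell in both tributyrin comparisons. Its means were 5387 TPM after tributyrin, 6335 with ampicillin and mock gavage and 6341 with vehicle. Its call over ampicillin with mock gavage was lost with no filter and without ampicillin replicate 2 or tributyrin replicate 2. The carbonic anhydrase gene Car4 was lowest with ampicillin and mock gavage, as H2afv was. It stood at 203 ± 25.3 TPM after tributyrin, 124 ± 5.51 with ampicillin and mock gavage and 233 ± 18.3 with vehicle (SD, n = 3 each), with log2 fold changes of 0.71 for tributyrin over ampicillin with mock gavage (limma adjusted p = 0.00176) and -0.91 for ampicillin with mock gavage over vehicle (limma adjusted p = 0.000339). Of 5 goblet cell markers, 2 fell relative to vehicle with tributyrin and with ampicillin and mock gavage, and 0 were called between these groups. They were the mucin gene Muc2, at 126.9 ± 30.2 TPM after tributyrin, 118 ± 7.15 with ampicillin and mock gavage and 213 ± 42.7 with vehicle, and Spink4, at 3899.9 ± 294 TPM, 3455 ± 414 and 5373 ± 409.9 TPM in the same groups (SD, n = 3 each). Muc2 lost its calls without vehicle replicate 1, without ampicillin replicate 3 for ampicillin with mock gavage, and without vehicle replicate 2 or tributyrin replicate 2 for tributyrin. The part of these cells in the histone values was not tested, and in bulk RNA fewer cells of a type and less RNA per cell cannot be told apart. Tributyrin replicate 2 had the highest lymphocyte sum and the highest H1f0, and without it H1f0 rose by 0.63 over ampicillin with mock gavage (limma adjusted p = 0.00631) and by 0.38 over vehicle (limma adjusted p = 0.0247). Tributyrin replicates 1 and 3 also had lymphocyte sums above every library of the other groups, at 26.7 and 21.8 TPM. The part of lymphocytes in H1f0 was therefore not tested by leaving out replicate 2. Of 4 stem cell markers tested, Lgr5 and Smoc2 fell with tributyrin and with ampicillin and mock gavage, each relative to vehicle, although Smoc2 lost its calls without ampicillin replicate 3 or, for tributyrin, without any 1 vehicle library. The summed level of the 5 stem cell markers was 35.4 to 49.999 TPM after tributyrin, 39.9 to 44.0 with ampicillin and mock gavage, and 56.0 to 63.6 with vehicle.

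The genes whose patterns over the 9 libraries were most like those of H1f0, H2afv and H3f3b were found by the root mean square difference of log2(TPM + 1) values centred on the gene's mean. For H1f0 these were Rad51c, a recombination gene (difference 0.062), Maged1 (0.072) and Dnajc18 (0.081), where the median over the 10943 genes compared was 0.33. Maged1 stood at 31.8 ± 2.33 TPM after tributyrin, 18.9 ± 0.954 with ampicillin and mock gavage and 22.5 ± 1.75 with vehicle (SD, n = 3 each), while Rad51c and Dnajc18 were at most 2.61 and 2.32 TPM in any library. For H2afv they were Magohb, a subunit of the exon junction complex (0.033), Anp32a, an acidic nuclear phosphoprotein (0.044), and Uros, an enzyme of haem synthesis (0.054), with a median of 0.22. Anp32a stood at 148 ± 13.8 TPM after tributyrin, 114 ± 1.503 with ampicillin and mock gavage and 142 ± 7.10 with vehicle (SD, n = 3 each). For H3f3b they were Ufsp2, Ssb and Parp2 (0.033 to 0.037, median 0.15).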

How the data were processed

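RNA was measured in 9 libraries of caecal epithelial cells, in 3 groups of 3 taken with their replicate numbers from the sample titles. Per the labels' protocols, cells were released with DTT and EDTA and then Dispase, with no sort named, and NEBNext Ultra II kits were used. The authors deposited TPM per gene and library. Build mm10, DESeq2 1.20.0 and Salmon 0.8.2 are named, per the submitters' processing notes, without saying which step each served. Which annotation, filter and strand option was chosen is not given in the sources used here. TPM keeps no depth, so no interval for counting error was given, and as TPM is relative a rise of some transcripts lowers others.

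Genes with a mean of at least 1 TPM (12155 of 24091) were taken as log2(TPM + 1) and fitted in limma 3.58.1 under R 4.3.3 with 1 mean per group, no replicate block, 6 residual degrees of freedom and a variance trend, after the script was tested on simulated data. Calls were at a two-sided Benjamini-Hochberg adjusted p under 0.05 over all genes tested. Sums and shares were tested by exact permutation, and figures drawn with matplotlib 3.10.9. Gene IDs were matched to RefSeq GRCm38.p6, where 24045 of 24091 matched and the files' older names (H2afz, H2afv, H2afx, H2afj, H2afy) have newer symbols. No other gene of the deposited table overlapped a member in position.

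The members and all gene lists were chosen with earlier results of these data known. Genes named are the 8 members, called genes of each list from the 4 with the largest log2 fold changes, and the 3 genes nearest to each called member, which for H2afy are not reported here.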

Additional observations from a re-analysis of the deposited data

How the results depend on the processing

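The calls of H1f0 for tributyrin over ampicillin with mock gavage and over vehicle held under all 18 alternatives, with log2 fold changes of 0.63 to 0.78 and 0.38 to 0.56. Both calls of H2afv held under the same 18 (0.32 to 0.42 and -0.36 to -0.29), but not when it was summed with H2afz. The alternatives were pseudocounts of 0.1 and 5, no filter, a filter at 5 TPM, a replicate block, quantile normalization, removal of 1178 short RNA entries, array weights, a fit of only the 2 groups compared, and leaving out each library. With the replicate block, H1f0 was called for ampicillin with mock gavage over vehicle (log2 fold change -0.25, adjusted p = 0.0452). Whether a shared replicate number pairs libraries was not settled. Deviations from group means correlated across genes at -0.05 to 0.11 (median 0.0198) for the 9 pairs with the same number, and 1 exceeded 0.1. The 18 pairs with different numbers gave -0.12 to 0.07 (median -0.009). The block moved the all-gene counts to 3009, 3569 and 2707 from 2819, 3444 and 2587 (tributyrin over ampicillin with mock gavage, tributyrin over vehicle, and ampicillin with mock gavage over vehicle), with 3, 2 and 3 members called. Array weights called 4271 genes and 5 members for tributyrin over ampicillin with mock gavage, the added members being H2afz, H2afx and H3f3b. Fitting only the groups compared left 1 member for tributyrin over vehicle. Leaving out single libraries gave 1 to 2 called members for that comparison and for ampicillin with mock gavage over vehicle, 2 to 3 for tributyrin over ampicillin with mock gavage, and between 1587 and 3011 genes for tributyrin over ampicillin with mock gavage (1756 without ampicillin replicate 1, 1681 without ampicillin replicate 2, 1587 without tributyrin replicate 2), 2093 (without tributyrin replicate 2) to 3786 for tributyrin over vehicle, and 1774 to 2810 for ampicillin with mock gavage over vehicle. No called member changed sign under these alternatives. The causes were not tested. With 3 libraries a group and no depth, small differences such as that of H3f3a cannot be resolved below its interval.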

Other observations

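Histone variants known from the testis or oocyte were near or at 0 TPM in these cells. H1fnt, H1foo, H2afb2, H2afb3, H2bfm and Hist1h2ba were listed at 0 in all 9 libraries. H2afy2, the gene of the second macroH2A, was between 0.423 and 1.46 TPM, against 129.9 to 154 TPM for H2afy. Cenpa, the centromeric H3 gene, stood at 34.9, 34.0 and 30.3 TPM after tributyrin, at 31.6, 25.9 and 27.4 TPM with ampicillin and mock gavage, and at 38.1, 38.2 and 30.1 TPM with vehicle, and no comparison passed the threshold. H2afy2 and Cenpa were picked for mention after their values were seen.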
